A study of Mus musculus with 100 samples.

Results

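The genes examined here encode the proteasome and its assembly and regulatory factors. They are the genes whose symbol is Psma, Psmb, Psmc, Psmd, Psme, Psmf or Psmg followed by a number, without pseudogenes, and whose mean level was at least 1 RPKM (reads scaled by transcript length and library size) over 100 mRNA libraries. The pattern took 51 symbols, of which 49 passed, out of 24206 named genes and 11542 genes at or above that level. Psmb9, at a mean of 1.86 RPKM, lay just inside the threshold and Psmb8, at 0.926 RPKM, just outside it, and Psmb11, a subunit of the thymus, was at 0.015 RPKM. Of the 49 genes, Psmc3ip (a recombination factor) and Psme3ip1 matched by name only. They stay in all counts of the 49 and are also described apart.

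The proteasome degrades proteins that carry ubiquitin chains. Its barrel-shaped 20S core consists of outer alpha rings and inner beta rings that hold the proteolytic sites, and is capped by the 19S regulatory particle, in which an ATPase ring unfolds substrates while non-ATPase subunits of the base and lid bind and remove ubiquitin. The products of Psmg1 to Psmg4 help to assemble the core, and those of Psmd5, Psmd9 and Psmd10 the base. PA28, made from Psme1 and Psme2, is an alternative cap that interferon induces together with the immunoproteasome subunits encoded by Psmb8, Psmb9 and Psmb10. Embryonic stem cells are known for high proteasome activity.

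The cells were V6.5 mouse embryonic stem cells, a hybrid line, depleted of feeder fibroblasts and transfected with 1.8 µg of a plasmid for a short hairpin RNA (shRNA), with puromycin at 1 µg/ml added after 24 h and selection for 72 h. The design text gives as the aim finding which subunits of TFIID, which binds core promoters, and of Mediator, the coactivator between transcription factors and RNA polymerase II, contribute more to global transcription. The control plasmid groups name the knockdowns they serve, giving set A (15 TFIID knockdowns, shTaf1 to shTaf13 with shTaf4b and shTbp, and 5 Mediator tail knockdowns, shMed15, shMed16, shMed23, shMed24 and shMed25, against control_A), set B (23 Mediator knockdowns with shGcn5 and shUsp22, which target the SAGA coactivator, against control_B) and set C (shMed1 and shMed14 against control_C). By its words the title of control_B also takes in Med1 and Med14. These were set against control_C, whose title names them. The cells of every group, controls included, carried an shRNA plasmid and were puromycin-selected. Each of the 50 groups has 2 libraries, and the labels do not say that these came from separate cultures, so p-values measure only the spread between these libraries, which may be technical.

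The libraries held 17.25 to 39.32 M reads. In set B the target transcript was at 14.2% to 68.9% of its control_B mean in all 50 knockdown libraries. In set A it was at 15.9% to 59.0% in the libraries labelled replicate 2 but at 56.9% to 173% in those labelled replicate 1, so for set A only replicate 2 libraries of the knockdowns were used, against the mean of both control_A libraries. The set A knockdown libraries labelled replicate 1, other than that of shTaf6, also stood apart in their highest transcript. It was at 1495 (shTaf6) to 7604 RPKM (median 5688), against 5935 in control_A. In replicate 2 libraries it was at 1588 to 3662, against 2731 in control_A. In set C the target transcript was at 61.5% and 66.0% in the libraries labelled replicate 1 and at 97.9% and 99.1% in those labelled replicate 2. The highest transcript in these replicate 2 libraries was at 8662 and 7183 RPKM, against 6935 in control_C, while in replicate 1 libraries it was at 1943 to 2823 RPKM. Stem cell markers were present in all 80 libraries used (Pou5f1 at 172 to 447 RPKM). The 8 feeder markers summed to 0.977 to 7.39 RPKM in set B knockdowns and 1.46 to 1.99 RPKM in control_B.

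The promoters of 5 genes that the results below turn on are shown first, because their levels moved in opposite directions: Psme1 and Psme2, which were higher, and 3 genes of the 26S particle, Psma6, Psmc1 and Psmd4, which were lower. Each window runs from 250 bases before to 50 bases after a start site of RefSeq (build GRCm38.p6, 5′ to 3′ on the strand of the gene). Capitals mark matches, on either strand, to CCGGAAG (the core of sites for ETS factors), CCAAT (bound by NF-Y) or GAAA followed after 2 bases by GAAA (a repeat bound by interferon regulatory factors). TGACNNNGC, the antioxidant response element through which Nfe2l1 is known to act on proteasome genes, TATAAA and the NRF1 site (GCGCA and GCGC with 1 base between) had no match in them, and no match overlapped another. In the table Psma6 has another window (chr12:55383972-55384271, plus strand), with 2 matches to CCAAT and none to CCGGAAG, and Psme2 another that overlaps the one shown, with no match. The lines give Psme1 (chr14:55578244-55578543, plus strand), Psme2 (chr14:55591052-55591351, minus strand), Psma6 (chr12:55398575-55398874, plus strand), Psmc1 (chr12:100109952-100110251, plus strand) and Psmd4 (chr3:95042565-95042864, minus strand).
Psme1: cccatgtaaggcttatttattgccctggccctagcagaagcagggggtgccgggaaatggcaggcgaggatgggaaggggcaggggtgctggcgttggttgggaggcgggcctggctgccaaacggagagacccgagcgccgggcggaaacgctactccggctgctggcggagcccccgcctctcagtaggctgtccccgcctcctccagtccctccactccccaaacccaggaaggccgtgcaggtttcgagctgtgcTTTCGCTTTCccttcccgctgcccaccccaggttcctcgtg
Psme2: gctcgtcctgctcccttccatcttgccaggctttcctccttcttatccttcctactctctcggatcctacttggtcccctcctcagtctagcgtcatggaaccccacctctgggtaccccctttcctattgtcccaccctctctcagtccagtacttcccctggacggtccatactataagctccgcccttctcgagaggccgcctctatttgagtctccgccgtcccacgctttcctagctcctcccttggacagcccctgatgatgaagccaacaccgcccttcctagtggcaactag
Psma6: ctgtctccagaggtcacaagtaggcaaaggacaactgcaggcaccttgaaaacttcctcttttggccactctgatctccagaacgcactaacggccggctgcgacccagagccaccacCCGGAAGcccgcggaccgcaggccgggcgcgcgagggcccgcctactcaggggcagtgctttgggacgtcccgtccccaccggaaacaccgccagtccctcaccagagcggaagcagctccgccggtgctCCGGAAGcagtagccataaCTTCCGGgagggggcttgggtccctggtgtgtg
Psmc1: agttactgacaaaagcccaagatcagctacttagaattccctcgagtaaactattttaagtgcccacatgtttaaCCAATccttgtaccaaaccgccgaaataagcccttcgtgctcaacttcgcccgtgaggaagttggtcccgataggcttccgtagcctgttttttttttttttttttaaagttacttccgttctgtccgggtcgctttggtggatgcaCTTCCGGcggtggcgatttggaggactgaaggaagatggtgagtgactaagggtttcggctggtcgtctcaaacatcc
Psmd4: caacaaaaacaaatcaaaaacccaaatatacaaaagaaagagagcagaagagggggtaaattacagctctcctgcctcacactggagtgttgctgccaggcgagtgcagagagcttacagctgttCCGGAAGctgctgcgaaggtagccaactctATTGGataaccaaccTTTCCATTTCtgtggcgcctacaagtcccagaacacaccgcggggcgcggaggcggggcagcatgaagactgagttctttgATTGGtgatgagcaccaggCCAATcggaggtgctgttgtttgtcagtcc

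The table of promoters held 41 of the 49 genes. Of these, 16 (39.0%) had CCGGAAG in a window, against 21.5% of the 9195 tested genes with a promoter and 8.86% of all 32851 windows. They included the ATPase genes Psmc1, Psmc2 and Psmc6, the lid genes Psmd11, Psmd12 and Psmd13, and Psmc3ip and Psme3ip1, which match by name only. TGACNNNGC was in 6 (14.6%), among them Psmb5 and Psmb6, against 16.9% of tested genes and 12.4% of windows. CCAAT was in 15 (36.6%), against 43.9% of tested genes and 37.4% of windows. TATAAA was in 3 (7.32%), against 8.37% of tested genes and 13.6% of windows, and the NRF1 site in 7 (17.1%), against 12.3% and 4.60%. The GAAA repeat, added after the Psme1 window had been read, was in 5 (12.2%), against 3.16% of tested genes and 3.44% of windows. These 5 were Psme1, which was higher, Psmb3, Psmd4 and Psmg4, which were lower in several knockdowns, and Psmd9. Tested genes and members can have several windows, and a match describes letters only.

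In cells with a control plasmid 28 of the 31 subunit genes of the 26S particle (the rings without Psma8, the ATPases and the other base and lid genes) stood above all 15 accessory genes. The exceptions were Psma3 at 24.8 RPKM, Psma5 at 30.2 and Psmd11 at 37.5, below Psme3, the highest accessory gene at 58.5. Over the 6 control libraries the mean level of the alpha ring genes had a median of 81.6 RPKM, with Psma8, a germ-cell alternative to Psma7, the lowest at 6.34 RPKM. It was 111 RPKM for the beta ring (63.0 to 154.5), 90.1 for the ATPases (67.9 to 97.5) and 76.0 for the other base and lid genes (37.5 to 99.9). The core assembly chaperones ranged from 12.9 to 37.5 RPKM, the base chaperones from 6.97 to 32.0 and the activators and the inhibitor from 5.88 to 58.5, while Psmb9 and Psmb10 were at 1.96 and 7.78 RPKM.

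In 6 of the 25 knockdowns of set B at least 25 of the 49 genes were lower than in control_B, while PA28 genes were higher. In shMed10, where most genes were lower, 34 of 49 were called lower and 5 higher, beside 35.8% and 31.2% of all genes tested. A gene is called at an adjusted p under 0.05 (limma on log2(RPKM + 1), Benjamini-Hochberg over all 11542 genes within a comparison). In shMed30 30 genes were lower and 5 higher (27.3% and 33.1% of all genes). In shMed12 29 were lower and 3 higher (33.3% and 27%). In shMed19 26 were lower and 4 higher (27.1% and 23.5%), in shMed4 25 and 5 (33.9% and 30%) and in shMed28 25 and 4 (28.8% and 32.7%). The median log2 difference of the 49 genes was -0.19 in shMed10, -0.16 in shMed30, -0.14 in shMed12, -0.12 in shMed19, -0.11 in shMed4 and -0.09 in shMed28, and that of all genes lay between -0.04 and 0.02 in these 6. Most differences were thus small: 6 of the 239 lower calls over all 25 knockdowns reached a log2 difference of 0.5. The share of lower calls over all genes that reached it was not counted. Without control_B replicate 1 the count in shMed19 was 15 and that in shMed28 was 16. Without shMed19 replicate 2 the count in shMed19 was 17. For set B counts without a library or under another setting, here and below, the share of all genes called is not given. All 25 comparisons share the 2 control_B libraries. RPKM is a share of a library, so a change common to all transcripts would not show, and in bulk RNA fewer cells of a type and less RNA per cell cannot be told apart.

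**Figure D1:**
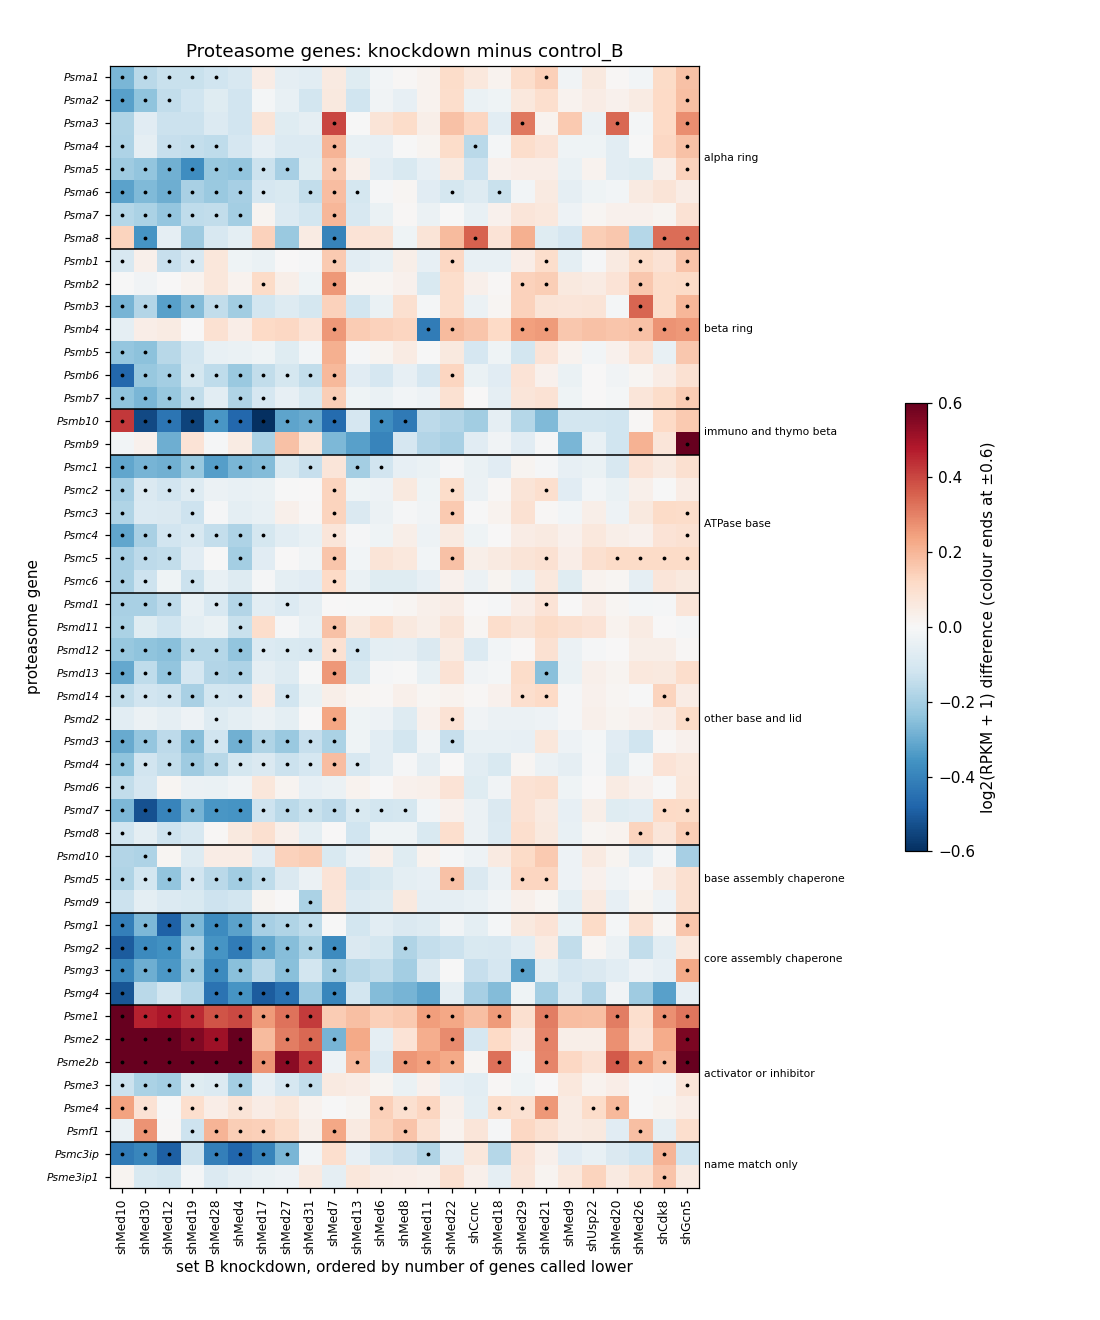
Log2(RPKM + 1) difference from control_B for the 49 genes (rows, grouped by role) in the 25 set B knockdowns (columns, ordered by the number of genes called lower). Blue is lower, red is higher, and a dot marks an adjusted p under 0.05; the left columns are mostly blue apart from Psme1, Psme2 and Psme2b, whose darkest cell is Psme2b in shMed10 at 1.44, beyond the end of the colour scale.

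Over all 25 knockdowns and 49 genes (1225 pairs) there were 239 lower calls, 16% of all genes being called lower over the same comparisons, and 146 higher calls, beside 16.5%. The knockdown libraries lay beyond both control_B libraries in 236 of the 239 and 145 of the 146. Only called pairs were counted, so such separation is largely given by the call. The share among calls over all genes was not counted. The next knockdowns in order were shMed17 with 16 genes lower and 4 higher (26.8% and 24.1% of all genes), shMed27 with 15 and 3 (17.9% and 21.6%) and shMed31 with 12 and 3 (12.6% and 17.9%). Without control_B replicate 1 the numbers lower were 8 in shMed17, 7 in shMed27 and 4 in shMed31. They were also 8 without shMed17 replicate 2, 7 without shMed27 replicate 1, and 7 and 5 without shMed31 replicate 1 or 2. In the other 16 knockdowns at most 8 genes were lower. In shMed13 5 were lower and 1 higher (12.1% and 9.74% of all genes), in shMed6 3 and 1 (8.07% and 6.77%), in shMed8 3 and 3 (10.4% and 13.6%), in shMed11 2 and 3 (8.27% and 9.32%) and in shCcnc 1 and 1 (7.77% and 10.2%). More genes were higher than lower in shMed22, with 2 lower and 11 higher (11.8% and 12.5%), in shMed18, with 1 and 3 (5.09% and 4.23%), and in shMed29, with 1 and 6 (7.77% and 9.79%). None was lower in shMed20, with 5 higher (5.96% and 6.05%), in shMed26, with 8 (13.9% and 17.5%), in shCdk8, with 9 (6.89% and 9.98%), or in shUsp22, with 1 (1.94% and 2.65%). In shMed9 none was called in either direction (4.7% and 5.54%). Without a library the higher count in shMed22 was 3 to 7, in shMed29 0 to 5, in shMed26 1 to 8 (1 without its replicate 2, 4 without control_B replicate 2), in shCdk8 1 to 5 and in shMed20 2 to 4, and the lower count in shMed13 was 1 to 5. A typical member was lower in 5 knockdowns and higher in 2 (medians), against 2 and 2 for all genes tested. Few were called in most knockdowns: 1 of 49 (2.04%) was lower in 13 or more, against 7.31% of all genes, and 2 (4.08%) were higher in 13 or more, against 9.16%.

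**Figure D2:**
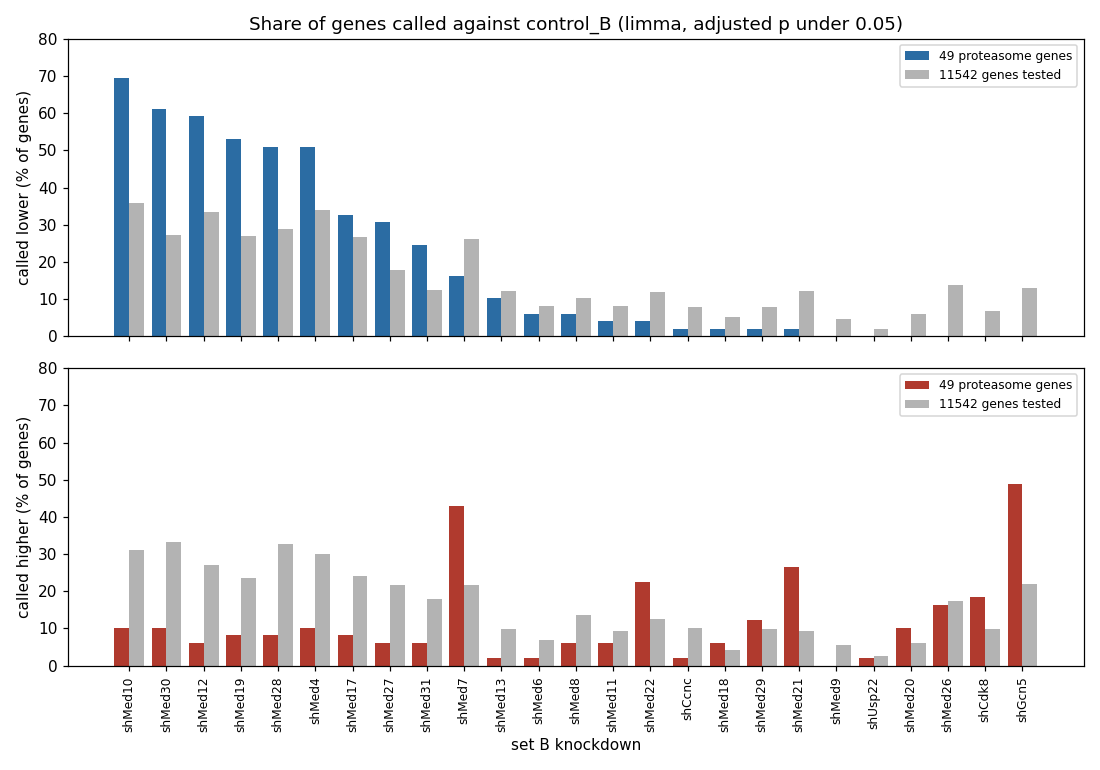
Percentage of the 49 proteasome genes (coloured bars) and of the 11542 genes tested (grey bars) called lower (top) or higher (bottom) than control_B in each set B knockdown. The coloured bar stands above the grey one at the left of the top panel, and exceeds it for higher calls in shGcn5, shMed7, shMed21, shMed22, shCdk8, shMed20, shMed29 and shMed18 (48.98% against 21.9% in shGcn5 and 6.12% against 4.23% in shMed18).

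Of the 31 subunit genes of the 26S particle, 17 to 27 were lower in each of the 6 knockdowns. In shMed10 27 were lower and all 31 differences were negative, the median being -0.20. In shMed12 22 were lower, in shMed30 21, in shMed19 19, and in shMed4 and shMed28 17 each, and none of the 31 was higher in any of the 6. Of all 49 genes, 17 (34.7%) were lower in each of the 6, against 14% of all genes tested, 39 (79.6%) were lower in at least 1, against 51.1%, and 6 (12.2%) were called in none, against 10.1%. The 6 knockdowns were taken for their number of lower genes among the 49, so these shares are descriptions. Psmb2, Psmb4 and Psma3 were among the 26S genes with no call there: their differences lay between -0.02 and 0.07, between -0.05 and 0.09, and between -0.18 and -0.07.

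Psmd7, a lid subunit that pairs with the deubiquitinase Psmd14, was called lower most often, in 13 of 25 knockdowns. It stood at 66.6 and 65.5 RPKM in shMed30 libraries, 70.0 and 74.6 in shMed12 libraries, 73.9 and 74.6 in shMed4 libraries and 75.02 and 74.3 in shMed28 libraries, against 96.2 and 94.4 RPKM in control_B libraries. None of these groups overlapped with the controls. The log2 difference was -0.52 ± 0.03 (SE) in shMed30 (adjusted p = 2.82e-15, limma), and -0.39 in shMed12, -0.36 in shMed4, -0.35 in shMed28, -0.28 in shMed19 and -0.27 in shMed10. In shGcn5 it was higher, at 103.6 and 102.8 RPKM. Psmd3, a scaffold subunit of the lid, was lower in 11 knockdowns and higher in none, with 72.3 and 65.4 RPKM in shMed10 libraries and 71.5 and 67.2 in shMed4 libraries, against 85.4 and 84.4 RPKM in control_B libraries. The ubiquitin receptor gene Psmd4 and the lid gene Psmd12 were each lower in 10. Psmd2 and Psmd6, a base scaffold and a lid subunit, were lower in 1 knockdown each. Over the 11 base and lid genes 69 of 275 pairs were lower and 15 higher, beside 16% and 16.5% over all genes.

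Among the ATPases, Psmc1 was lower in 10 knockdowns and higher in none. It was at 69.7 and 69.4 RPKM in shMed28 libraries and at 69.2 and 71.6 in shMed10 libraries, against 88.5 and 86.7 RPKM in control_B libraries (log2 difference -0.33 ± 0.04 in shMed28, adjusted p = 9.17e-09, limma). Psmc4 was next with 7 lower calls, the most negative in shMed10 at -0.31. All 6 ATPase genes were lower in shMed10, 5 in shMed30 and 4 in shMed12, while Psmc5 was higher in more knockdowns (7) than it was lower (4).

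In the core particle the alpha subunit gene Psma6 was lower in 11 knockdowns. It was at 101 and 103 RPKM in shMed10 libraries and at 107 and 105 in shMed30 libraries, against 129 and 127 RPKM in control_B libraries (log2 difference -0.32 ± 0.04 in shMed10, adjusted p = 9.75e-09, limma). Psma5 was lower in 8, most in shMed19 at 24.4 RPKM in both libraries, against 31.5 and 32.3 RPKM in control_B libraries. The 3 catalytic beta genes had unequal numbers of calls. Psmb6, which supplies the caspase-like site, was lower in 9 knockdowns, with 99.0 and 99.1 RPKM in shMed10 libraries, against 136 and 139 RPKM in control_B libraries (-0.47 ± 0.04, adjusted p = 3.72e-11, limma). Psmb7, of the trypsin-like site, was lower in 6, with 119 and 115 RPKM in shMed30 libraries, against 143 and 141 RPKM in control_B libraries. Psmb5, of the chymotrypsin-like site, was lower in 2, shMed10 at 66.2 and 57.2 RPKM and shMed30 at 61.8 and 59.9 RPKM, against 76.8 and 68.2 RPKM in control_B libraries. Its libraries lay further apart within groups, and its standard error was 0.09, against 0.04 for Psmb6 and Psmb7.

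Single genes departed from the group. Psmb4 was at 124 and 121 RPKM in shMed11 libraries, against 171 and 157 RPKM in control_B libraries (log2 difference -0.42, adjusted p = 1.97e-05, limma). Of the other genes only Psmc3ip, a match by name only, was lower there, and Psmb4 was higher in 7 other knockdowns. Psmb3 was at 85.0 and 82.6 RPKM in shMed26 libraries, against 66.7 and 64.4 RPKM in control_B libraries (0.35, adjusted p = 3.36e-05), while it was lower in 6 others.

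The core assembly chaperone genes had 35 lower and 2 higher calls over 100 pairs (16% and 16.5% over all genes) and a median log2 difference of -0.15, beside medians of -0.02 for the alpha ring and 0.00 for the beta ring. All 4 were lower in shMed10, with a median of -0.45. Psmg1, which pairs with Psmg2 in the first steps of ring assembly, was at 28.7 and 26.9 RPKM in shMed10 libraries and 26.4 and 26.1 in shMed12 libraries, against 39.5 and 35.0 RPKM in control_B libraries. No knockdown library of these groups reached the lower control. Its log2 difference was -0.49 ± 0.05 in shMed12 (adjusted p = 1.72e-09, limma). Psmg2 was lower in 11 knockdowns and higher in none, with 21.5 and 19.7 RPKM in shMed10 libraries, against 29.9 and 29.1 RPKM in control_B libraries (-0.50 ± 0.06). Psmg3 was lower in 9, with 14.2 and 12.0 RPKM in shMed10 libraries, against 17.8 and 17.0 RPKM in control_B libraries. Psmg4 was lower in 6 and negative in all 25, with 10.9 and 9.05 RPKM in shMed10 libraries and 10.1 and 9.95 in shMed17 libraries, against 15.2 and 14.03 RPKM in control_B libraries. These 2 libraries serve all 25 differences of Psmg4. Their mean of 14.6 RPKM lay above those of control_A (11.3) and control_C (12.9). The base chaperone genes differed among themselves: Psmd5 was lower in 7 knockdowns, including all 6, and Psmd9 and Psmd10 in 1 each.

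Psmb10, the immunoproteasome counterpart of Psmb7, was lower in 11 knockdowns but higher in shMed10. It was at 4.67 and 4.34 RPKM in shMed17 libraries and 4.98 and 4.70 in shMed19 libraries, against 8.59 and 6.67 RPKM in control_B libraries (-0.64 ± 0.11 in shMed17, adjusted p = 7.11e-06, limma). In shMed10 libraries it was at 11.4 and 9.70 RPKM, above both controls (0.42 ± 0.11, adjusted p = 0.000797), a call that was lost in 1 of the 4 fits that left out a library and in 1 of 9 other settings. Its control libraries differed by -0.32 on the log2 scale (replicate 2 minus replicate 1), while the median size of that difference over the 49 genes was 0.04. Psmb9, the counterpart of Psmb6, was called only in shGcn5, at 3.60 and 3.50 RPKM, against 2.17 and 1.75 RPKM in control_B libraries (0.62 ± 0.16, adjusted p = 0.00327). That call was lost in 1 of the 4 fits that left out a library. Psmb8, left out of the 49 by its low mean, was not tested. It was at 4.41 and 3.90 RPKM in shMed10 libraries, against 0.58 and 0.77 RPKM in control_B libraries. Over the 50 set B knockdown libraries Psmb8 was above both controls in 34 and below both in 8, and the share of all genes so placed was not counted.

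The 3 genes of PA28 were higher in all 6 knockdowns. Psme1 and Psme2 encode its alpha and beta subunits, and Psme2b is a near-identical copy of Psme2 whose reads may be shared with it, since no source used here gives how reads that fit both were counted. No other gene of the 49 was higher in all 6 (14.1% of all genes were). Psme1 was at 32.8 and 33.2 RPKM in shMed10 libraries, 26.8 and 27.3 in shMed12, 29.1 and 24.1 in shMed30, 25.9 and 26.7 in shMed19, 24.4 and 26.3 in shMed4 and 23.7 and 26.2 in shMed28, against 18.5 and 19.5 RPKM in control_B libraries. Every one of these libraries was above both controls. The log2 difference in shMed10 was 0.77 ± 0.08 (adjusted p = 8.97e-10, limma), and it was positive in all 25 knockdowns and called in 16, from 0.10 to 0.77. All 25 differences use the same 2 control_B libraries, so they are not separate findings. For Psme1, control_B replicate 1 was the lowest of all 100 libraries. The control_B mean was 19.0 RPKM, against 24.1 in control_A and 29.9 in control_C. Psme2 was at 14.3 and 14.2 RPKM in shMed10 libraries, 9.23 and 8.47 in shMed30 and 8.04 and 9.64 in shMed4, against 4.55 and 5.34 RPKM in control_B libraries (1.36 ± 0.10 in shMed10, adjusted p = 2.69e-13). Psme2b was at 35.5 and 34.7 RPKM in shMed10 libraries, 21.6 and 22.5 in shMed30 and 20.3 and 20.6 in shMed12, against 12.0 and 12.7 RPKM in control_B libraries (1.44 ± 0.07 in shMed10, adjusted p = 1.68e-18). It was called higher in 19 knockdowns and Psme2 in 11. In all 6 knockdowns the calls of Psme1 and Psme2b also held in each of 9 other settings and in each fit without one of the libraries compared.

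**Figure D3:**
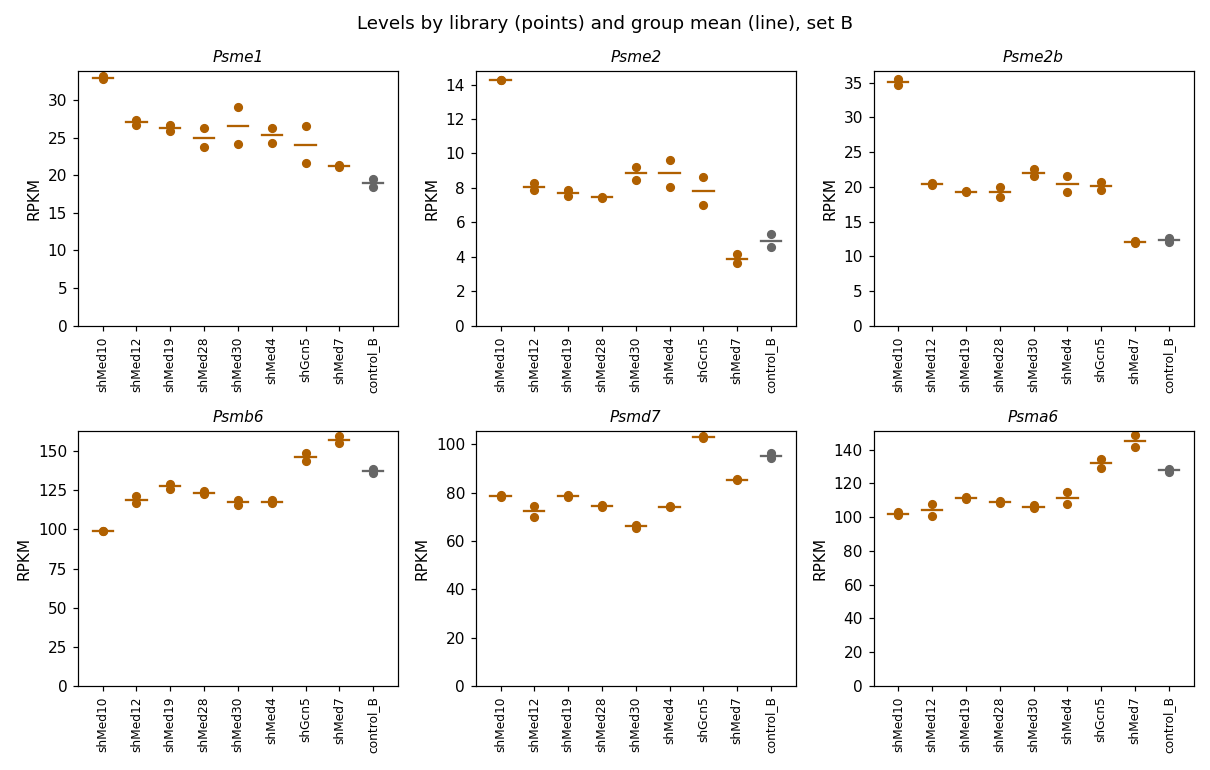
RPKM of Psme1, Psme2, Psme2b, Psmb6, Psmd7 and Psma6 in the 2 libraries (points) and their mean (line) of 8 knockdowns, with control_B at the right of each panel. In the 6 Mediator knockdowns at the left the PA28 genes lie above the control (Psme2b at 35.5 and 34.7 in shMed10, against 12.0 and 12.7) and Psmb6, Psmd7 and Psma6 below it.

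The other activator genes and the inhibitor gene had calls in both directions. Psme3, which forms the nuclear activator PA28 gamma, was lower in 8 knockdowns, including all 6, with 55.36 and 55.36 RPKM in shMed12 libraries, against 65.2 and 62.7 RPKM in control_B libraries (-0.20 ± 0.03, adjusted p = 9.76e-08, limma). Psme4, encoding the activator PA200, was higher in 12 knockdowns, 4 of the 6 among them, and lower in none, the differences being small: 58.7 and 59.8 RPKM in shMed21 libraries, against 48.6 and 50.0 RPKM in control_B libraries (0.26 ± 0.03, adjusted p = 5.19e-08). Psmf1, which encodes the proteasome inhibitor PI31, was higher in 7, including 3 of the 6, and lower in 1 of the 6, shMed19 at -0.125. It was at 11.4 and 11.3 RPKM in shMed30 libraries, against 9.15 and 9.36 RPKM in control_B libraries. Of the genes that match by name only, Psmc3ip was lower in 8 knockdowns (-0.49 in shMed12) and Psme3ip1 in none.

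Across the 25 knockdown means the subunit levels moved together. The median Pearson r between pairs of the 31 subunit genes was 0.71 on the log2(RPKM + 1) scale, that between the 3 PA28 genes 0.93, and that between a PA28 gene and a subunit gene -0.64. The mean of the PA28 genes against the mean of the 31 had r = -0.73, -0.65 without shMed10 and -0.80 without shMed10 and shGcn5. As shGcn5 was high on both means, leaving it out makes r more negative by the choice of point. These are descriptions over knockdowns that share a fit and a normalisation by library size. The median r between pairs of all genes tested was not computed, so whether these values are particular to these genes is not known. The PA28 pairs include Psme2 with Psme2b, whose reads may be shared. With the 5 antigen-processing genes counted below, the PA28 genes had r between 0.89 and 0.92 for Tapbp, 0.83 and 0.92 for Irf1, 0.84 and 0.90 for Tap2, 0.70 and 0.78 for B2m, and 0.64 and 0.74 for Tap1.

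**Figure D4:**
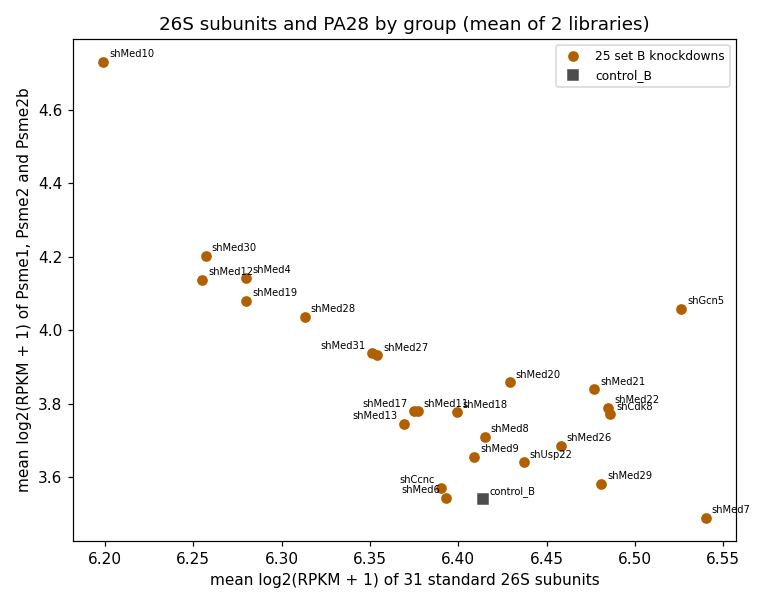
Mean log2(RPKM + 1) level of Psme1, Psme2 and Psme2b against that of the 31 standard 26S subunit genes, 1 point for each set B knockdown (mean of 2 libraries), with control_B as a square. The knockdowns run from shMed10 at the upper left (6.20 and 4.73) to shMed7 at the lower right (6.54 and 3.49), and shGcn5 lies apart at 6.53 and 4.06.

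Knockdown of Gcn5, the acetyltransferase of SAGA, and of Med7, a middle module subunit, went the other way. In shGcn5 24 of the 49 genes were higher and none lower (21.9% and 13% of all genes), with a median of 0.10 against 0.04 for all genes. The count depended on the scaling and on single libraries. It was 8 higher and 2 lower when libraries were rescaled to the same median, and 12 and 1 with the same upper quartile. It was 12 higher without shGcn5 replicate 2 and 10 without control_B replicate 2. The share of all genes called in these fits is not given, so whether the members stood apart there is not known. Psmb4 was at 201 and 192 RPKM in shGcn5 libraries, against 171 and 157 RPKM in control_B libraries (0.26 ± 0.07, adjusted p = 0.00261, limma). Here PA28 was higher along with the subunits: Psme2b was at 20.7 and 19.5 RPKM in shGcn5 libraries, against 12.0 and 12.7 RPKM in control_B libraries (0.67 ± 0.07, adjusted p = 1.74e-09).

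In shMed7 21 genes were higher and 8 lower (21.6% and 26.3% of all genes), and the 26S subunits were 20 of the 21. Without shMed7 replicate 2 there were 14 higher and 4 lower. Psma3 was at 30.0 and 31.1 RPKM in shMed7 libraries, against 22.90 and 22.96 RPKM in control_B libraries (0.40 ± 0.10, adjusted p = 0.00129, limma). Psmb6 was at 159.9 and 155 RPKM in shMed7 libraries, against 136 and 139 RPKM in control_B libraries (0.19 ± 0.04, adjusted p = 0.00039), and Psmb2 at 127 and 129 RPKM, against 112 and 102 RPKM. The 8 lower genes were Psmd7, Psmd3, Psmb10, Psma8, Psme2 and 3 of the 4 core assembly chaperone genes. In shMed21 13 genes were higher and 1 lower (9.28% and 12.3% of all genes), with 6 or 7 higher in each fit without one of its libraries or of the control libraries.

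Markers of other cells and of the stem cell state moved with some of these groups. The 8 feeder markers summed to 5.65 and 7.13 RPKM in shMed10 libraries, 6.80 and 7.39 in shMed12, 2.77 and 3.11 in shMed4, 2.73 and 2.81 in shMed30 and 2.63 and 2.66 in shMed28, against 1.46 and 1.99 RPKM in control_B libraries. In shMed19, where Psme1, Psme2 and Psme2b were also higher, the sum was 1.60 and 1.65 RPKM. Lum was at 0 in 63 of the 80 libraries used, Postn in 46 and Dcn in 27. The 7 stem cell markers summed to 630 to 831 RPKM in shMed10, shMed12, shMed4, shMed30 and shMed28 libraries and 990 and 1002 in shMed19, against 1324 and 1342 RPKM in control_B libraries. In shMed7, where the subunits were higher, it was 926 and 934 RPKM. The part of either in the proteasome genes was not tested.

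Genes that work with the proteasome were read from lists, beside the same background of 16% lower and 16.5% higher. The 5 antigen-processing genes counted had 3 lower and 69 higher calls over 125 pairs, with Nlrc5 left out at 0.101 RPKM. Tapbp, which loads peptides onto MHC class I, was higher in 21 knockdowns, with 23.6 and 22.8 RPKM in shMed10 libraries, against 7.03 and 6.05 RPKM in control_B libraries (1.68 ± 0.08, adjusted p = 1.38e-18, limma). Irf1, an interferon-responsive transcription factor, was higher in 20, with 23.7 and 22.3 RPKM in shMed10 libraries, against 7.27 and 7.30 RPKM in control_B libraries, and lower in shMed7 at -0.61, where Psme2 was lower too. The peptide transporter gene Tap1 was higher in 14 and B2m, the light chain of MHC class I, in 8.

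Among 14 non-Psm subunits and partners there were 79 lower and 39 higher calls over 350 pairs. Rad23b, a shuttle for ubiquitinated proteins, was lower in 17 knockdowns (75.7 and 73.3 RPKM in shMed10 libraries, against 98.2 and 93.8 RPKM in control_B libraries), Ubqln4, another shuttle, in 13, and the proteasome-bound deubiquitinases Uchl5 and Usp14 in 10 and 8. Ubqln1 was higher in 11. Adrm1, a ubiquitin receptor of the base, was lower in 5 and the core maturation factor Pomp in 4. The 4 genes counted for ubiquitin and its activating enzyme had 20 lower and 8 higher calls over 100 pairs. Rps27a, which encodes ubiquitin fused to a ribosomal protein, was lower in 12. For the axis of Nfe2l1, the factor known to raise proteasome genes when the proteasome is inhibited, there were 13 lower and 23 higher calls over 125 pairs. Nfe2l1 itself was lower in 3 and higher in 3, and its log2 difference in shMed10 was -0.02 (adjusted p = 0.64). Vcp, the segregase that feeds substrates to the proteasome, was higher in 15.

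Kinase module knockdowns (shCcnc, shCdk8, shMed12 and shMed13) were set against 15 head and middle module knockdowns, with the knockdown as the unit. None of the 49 genes was called by limma, as none of all genes was (0% in either direction), and 1 of the 49 and 324 of all genes had an unadjusted p under 0.05. The members of a module differed: shMed12 had 29 genes lower, while shCcnc had 1, shMed13 5 and shCdk8 none.

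In set A few differences were large. With 1 library for each knockdown the pairs were read by size: 6 of 980 gene-by-knockdown pairs were lower and 9 higher by a log2 difference of at least 0.5, beside 2.28% and 3.18% of pairs over all genes. A fit of 80 libraries by limma, in which the lone library is assumed to vary like those of other groups, called 38 pairs lower and 62 higher, beside 7.1% and 9.58%. Psma8 was lower by this measure in shTaf6 at -1.001, in shTaf12 at -0.65 and in shTaf1 at -0.54, and Psmb10 in shTaf1 at -0.56. Psmb9 was higher in shTaf3 at 0.75 and in shTaf4 at 0.64. Psme2b was higher in 6 of the 20, including shTaf9 at 0.74 and shMed16 at 0.69, and Psme2 in shTaf9 at 0.70. Psmb3 at -0.78 and Psma5 at -0.72 were lower in shMed16. All 15 pairs were also past 0.5 against control_A replicate 2 alone, where 10 pairs were lower and 9 higher. Over the 15 TFIID libraries Psme2b ranged from 11.4 to 20.8 RPKM with a median of 15.6, and over the 5 tail libraries from 14.2 to 20.02 with a median of 16.4, against 12.05 RPKM in both control_A libraries. It was above both controls in 14 of 15 TFIID libraries and 5 of 5 tail libraries, as was Psmb4. The share of all genes so placed was not counted. Psme1 was above both controls in 5 of the 15 TFIID libraries and below both in 6. Psme2 was above both in 10 of these 15 and below both in 1. Psmd7 ranged from 74.4 to 98.4 RPKM over the TFIID libraries with a median of 88.2, against 87.8 and 92.9 RPKM in control_A libraries, and the groups overlapped.

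With the knockdown as the unit, no member was called by limma for TFIID against control_A (2 at an unadjusted p under 0.05; 0.0173% of all genes lower and 0.234% higher) or for the tail against control_A (3 at an unadjusted p under 0.05; 0.00866% and 0.0606%). Psmb4 had a log2 difference of 0.25 ± 0.07 for TFIID (adjusted p = 0.16) and 0.27 ± 0.08 for the tail (0.32), and Psme2b 0.36 ± 0.15 (0.412) and 0.43 ± 0.17 (0.622). Between the classes, 2 members were higher in TFIID than in tail knockdowns and none lower (5.16% and 2.8% of all genes). Psmg1 ranged from 28.4 to 41.7 RPKM in TFIID libraries with a median of 37.5, and from 25.5 to 33.2 in tail libraries with a median of 29.0, with 30.9 and 34.4 RPKM in control_A. The ranges overlapped, and the difference was 0.31 ± 0.07 (adjusted p = 0.0152, limma). It was not called without shMed23 (0.054) or in the libraries labelled replicate 1 (0.066). Psme3 ranged from 54.6 to 71.4 RPKM in TFIID libraries with a median of 64.1, and from 53.1 to 60.1 in tail libraries with a median of 57.7 (0.17 ± 0.05, adjusted p = 0.0356), and lost its call in 10 settings, among them both rescalings and the fits without shMed15, shMed16, shMed23, shMed24, shTaf5, shTaf8 or shTaf10.

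**Figure D5:**
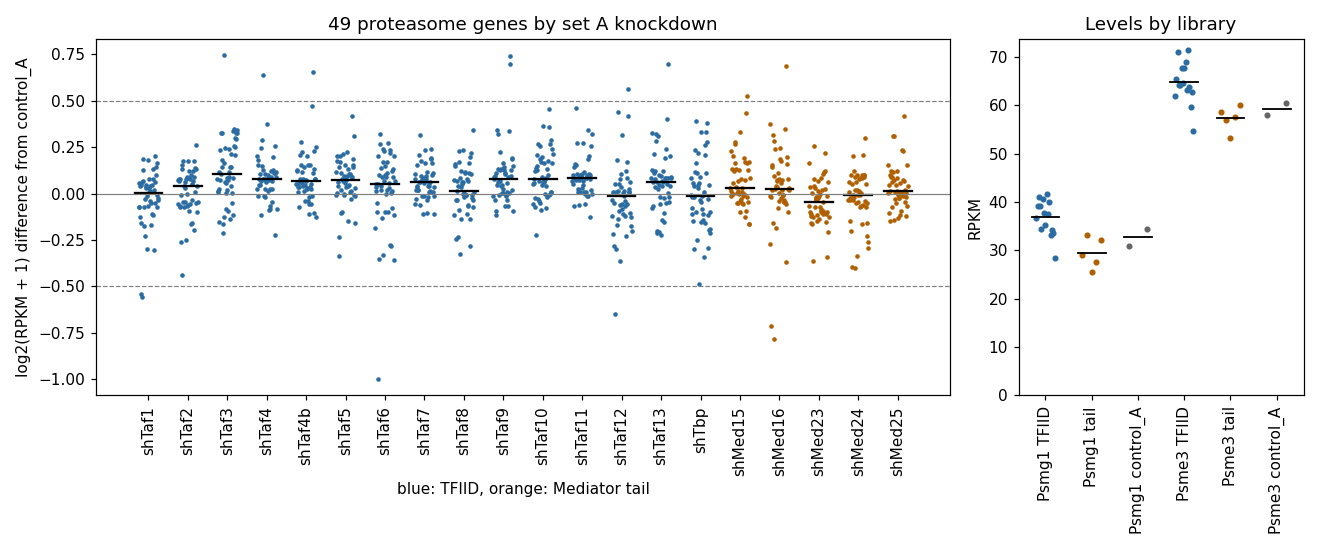
Left, log2(RPKM + 1) difference of each of the 49 genes (points) from the control_A mean in the replicate 2 library of each set A knockdown, with the median (line) and the limits of 0.5 (dashed). Right, RPKM of Psmg1 and Psme3 by library (points) with class means (lines) for TFIID, tail and control_A; the medians at the left lie near 0, and the TFIID and tail points of both genes overlap.

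In set C no member was called for shMed1 or shMed14 against control_C by limma, nor was any gene (0% in either direction). None of the 49 had an unadjusted p under 0.05, while 43 and 47 of all genes had one. The differences ranged from -0.23 to 0.33 in shMed1 and from -0.16 to 0.34 in shMed14. As the target was near its control level in the replicate 2 libraries, these values describe libraries by their labels.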

How the data were processed

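The authors deposited RPKM values, 1 table per library, as the column headers and values show; reads were aligned with TopHat2 to mm9, per the submitters' processing notes. No source used here names how reads were counted, whether by strand, or what was done with reads that fit several places. Transcripts were named from RefSeq tables (GRCm38.p6: 33481 of 33858) and GENCODE vM21 (188 more), and each gene took its transcript with the highest mean RPKM. Lines for further genome copies (1052) were left out. Low values gave each library's depth: 99.2% of values were whole reads within 0.01 reads. Tests used limma 3.58.1 (trend) in R 4.3.3 on log2(RPKM + 1), two-sided; the pseudocount of 1 understates folds of low genes. Set B was fitted with 52 libraries (26 residual degrees of freedom), the set A classes with 22, set C with 6. The mean chi-square between a group's libraries, from the recovered reads (1 for sampling alone), was 1.79 to 4.15 in set B, 9.90 to 63.2 in set A and 8.30 to 53.5 in set C. Figures drew on Python 3.11.15 and matplotlib 3.10.9. The fits were tested on simulated data.

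The genes, role groups, lists and tests were chosen with earlier results of these data known. Of the lists of other genes, 2 genes are not reported here and were left out of the counts. Values were given in full for the genes with the most calls in one direction, those called against most others, the catalytic and immunoproteasome genes and those called between classes. Alternatives were other pseudocounts, filters, scalings, transcript sums, fits, thresholds, a replicate block and leaving out each library. The labels do not say that replicate numbers pair libraries across groups.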

Additional observations from a re-analysis of the deposited data

Results flagged for a closer look

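Within the modules of set B, 3 of 80 groups of differences had a knockdown standing far from the others, where chance gives about 1 in 20. Among the head module knockdowns the log2 difference of Psme2b was lowest in shMed6 (-0.080) and that of Psmg1 in shMed17 (-0.2002). Among the kinase module knockdowns that of Psmg2 was lowest in shMed12 (-0.365).

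The difference between TFIID and Mediator tail knockdowns, tested directly by limma, was 0.309 for Psmg1 and 0.172 for Psme3 on the log2 scale, TFIID being higher for both. These were 2 of the 49 genes, while 5.16% of all genes tested were higher, so the count does not set the members apart. Psmg1 was not called without shMed23, and Psme3 lost its call in several settings, both rescalings among them.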

How the results depend on the processing

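In set B no call reversed under any of the 9 other settings or without a library, and 67 of 239 lower and 23 of 146 higher calls held in all of them. Only called pairs were checked and the settings reuse the same libraries, so a reversal was unlikely from the outset. Counts lower and higher were 67 and 23 in a fit of all 100 libraries, 169 and 65 in a fit of 80, 176 and 88 at an adjusted p under 0.01, and 6 and 17 with a log2 difference of at least 0.5 as well. They were 278 and 128 with libraries rescaled to the same median (68.5% lower, against 62.1%), 203 and 137 with the same upper quartile (59.7%), and 275 and 187 with the replicate block. The deviations of same-numbered libraries from their group means, set against control_B over genes, had r over 0.1 in 21 of 25 knockdowns and above 0 in all 25 (0.06 to 0.20), a hint from the data and not from the design. Leaving out 1 library gave 161 to 244 lower and 98 to 149 higher. TFIID against the tail gave 1 lower and 1 higher under either rescaling, 0 higher in the libraries labelled replicate 1 and 2 lower with the mean of both replicates; without 1 library it gave 0 to 3 higher and 0 to 1 lower. Psme3 there was 0.128 with median rescaling and 0.142 with upper-quartile rescaling. Set A pairs past the fold were 35 lower and 76 higher at 0.25, 38 and 62 by limma in the fit of 80 libraries (the lone library assumed to vary like the others), 20 lower in the libraries labelled replicate 1, and 5 to 10 lower and 9 to 16 higher without a control library. Set C against control_B gave 26 lower and 32 higher. The share of all genes called in that comparison is not given, so these counts do not set the members apart. The causes were not tested. No paired analysis was possible for the set A classes because each knockdown enters with 1 library.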
